A study of Mus musculus with 26 samples.

Results

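The step from the early 2-cell stage (E2C) to the late 2-cell stage (L2C) was followed in mouse embryos that lacked maternal KDM3A and KDM3B. A gene entered if it had 1 TPM (the deposited unit, a length-corrected share of a library) or more in at least 2 of the 4 libraries of these embryos, which left 12372 of the 24412 genes listed. Of these genes, 9407 reached 1 TPM in all 4 libraries, 1592 passed only through the L2C libraries and 218 only through the E2C libraries. Just inside the limit lay Mccc2 and Cpq, whose second-highest values were 1.00045 and 1.00099 TPM, and just outside lay 4932415M13Rik and Nubp1 at 0.998549 and 0.998441 TPM.

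The embryos were of strain C57BL/6J. Per the labels, females with conditional (floxed) alleles of Kdm3a and Kdm3b and a Zp3-Cre transgene, whose promoter is active in growing oocytes, gave the oocytes, and fertilisation in vitro used sperm of wild-type males. The resulting maternal double-knockout embryos, called mDKO, therefore received intact paternal copies of both genes. They were compared with embryos labelled control, whose alleles the labels do not list. Each of the 4 groups (E2C and L2C, mDKO and control) had 2 libraries of polyA RNA, made from pools of 12 to 20 embryos at E2C and of 20 at L2C. The fertilisation scheme is stated for the E2C embryos, and at L2C the genotype label, but not the title, calls the knockout maternal. No kit is given for the L2C libraries in the sources used here, and their protocol names a shorter list of sequencers than that of the E2C libraries, so stage and library preparation cannot be told apart in an E2C to L2C change.

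As background, KDM3A and KDM3B remove methyl groups from mono- and dimethylated lysine 9 of histone H3, a mark of silent chromatin. A mouse embryo starts on RNA stored in the egg. A minor wave of transcription, which includes the Dux, Zscan4 and Obox genes and the retroelement MERVL, begins in the zygote and peaks around the early 2-cell stage, and a major wave follows by the late 2-cell stage, with genes for ribosomes, RNA processing and energy metabolism. Over the same hours much of the stored maternal RNA is degraded.

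The libraries held between 10432 and 12396 genes at 1 TPM or more, and replicates of these 4 groups correlated across genes at 0.985 to 0.989 (Pearson, log2(TPM + 1)). Transcripts of the egg and the 2-cell embryo were present: the oocyte factor Bmp15 stood at 1236 and 1446 TPM in mDKO E2C libraries and 546 and 657 in mDKO L2C libraries, and Pou5f1 at 50.8 and 62.6 and 49.3 and 58.8. Markers of other cells were also read. Sperm and spermatid markers, with 5 of 15 tested in mDKO, summed to 13.4 to 15.8 TPM in the mDKO libraries. The 15 cumulus and granulosa cell markers, 5 of them tested, summed to 196 and 236 TPM at E2C and 104 and 106 at L2C, most of it from Serpine2. The 15 blood cell markers, 6 of them tested, summed to 4.54 and 268 TPM at E2C and 103 and 459 at L2C in mDKO, and to 90.7 and 26.9 and then 328 and 406 TPM in control. The second mDKO L2C library held Lyz2 at 205 TPM and Tyrobp at 40.2, against 6.25 and 0 in the first, and the part of these markers in the results was not tested.

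A large part of the transition was also called in mDKO embryos. By limma's moderated test, 4122 genes rose from E2C to L2C (33.3% of those tested) and 2694 fell (21.8%). Changes of at least 2 on the log2 scale, where each unit is a 2-fold change of TPM + 1, were more often rises. By that much 1506 genes (12.2%) rose and 212 (1.71%) fell. The filter favours rises, as 1592 genes passed only through the L2C libraries and 218 only through the E2C libraries. With a minimum of 5 TPM in 2 libraries, 2809 genes rose and 2403 fell by any amount. With scaling by size factors in place of TPM totals, the median change over all genes moved from 0.09 to -0.02. In control embryos 4924 of 12545 genes rose (39.3%) and 4208 fell (33.5%), together 72.8%, and 2043 (16.3%) and 694 (5.53%) changed by at least 2, with a median of 0.06 over all genes. Without the first or the second mDKO L2C library, 1943 or 1983 genes rose in mDKO, and 1612 fell without the first, of 10689 and 10654 genes that then passed the filter.

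Of the 11778 genes tested in both transitions, 3319 rose in both, which is 73.4% of those that rose in control and 85.8% of those that rose in mDKO. A further 2205 fell in both, 54.0% of those that fell in control and 83.6% of those that fell in mDKO. Across these genes the changes correlated at 0.840 (Pearson) and 0.830 (Spearman). The 2 transitions share no library, but genes are not independent replicates, and all libraries share the TPM scale. In both transitions stage cannot be told apart from library preparation, so the correlation describes both together. The spread of the changes in mDKO was 0.827 times that in control, and 8033 genes (68.2%) changed less in mDKO than in control.

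**Figure D1:**
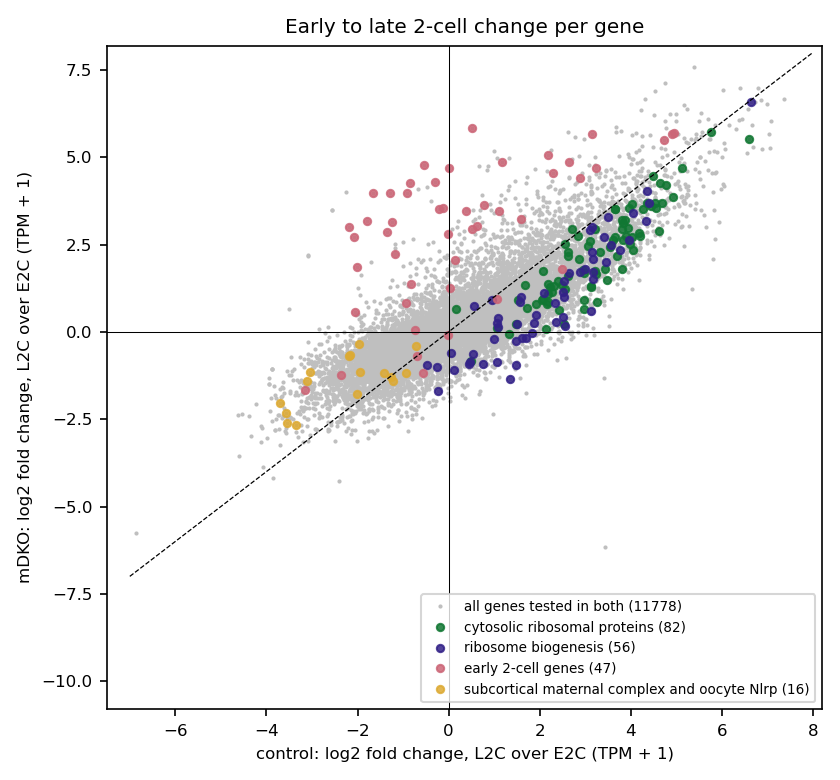
Change from E2C to L2C per gene in control embryos (horizontal axis) and mDKO embryos (vertical axis), as log2 fold change of TPM + 1, with 11778 genes in grey, 4 gene lists coloured, and a dashed line where both changes are equal. Early 2-cell genes lie mostly above the line, and cytosolic ribosomal protein and ribosome biogenesis genes mostly below it.

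The difference between the transitions was tested directly, as the mDKO change minus the control change over 8 libraries. It was higher than 0 for 1795 of 13423 genes (13.4%) and lower for 1694 (12.6%). With size factors the same counts were 1422 and 2097, so the balance of directions depends on scaling. Higher contrasts numbered 1136 or 1184 without the first or the second control E2C library and 1143 without the second mDKO L2C library, and lower ones 1046 without the second control E2C library and 1118 without the second mDKO L2C library. A difference of this kind can come from either stage. Among the 1694 genes with a lower contrast, both mDKO libraries lay below both control libraries at L2C for 96.0%, and above them at E2C for 50.2%, against 35.9% and 23.3% of all 13423 genes. Among the 1795 with a higher contrast, mDKO lay above control at L2C for 84.7% and below it at E2C for 62.1%, against 35.7% and 30.7% of all genes. The same 8 libraries chose these genes, so shares beyond those of all genes follow at least in part from the choice. They describe the genes and do not test which stage differs.

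Genes switched on late in control embryos were also switched on in mDKO embryos, to a lower level. A set of 679 genes was chosen in control libraries alone: a mean below 1 TPM at E2C and a rise of at least 2 on the log2 scale by L2C. In mDKO embryos 614 of the 679 (90.4%) reached 1 TPM in both L2C libraries, and both L2C libraries lay above both E2C libraries for 650. Their L2C level in mDKO was at the median 47.0% of that in control, with quartiles of 33.0% and 70.6%, and 101 genes reached at least 90% of it. They took up 0.0282% and 0.0257% of the TPM in the mDKO E2C libraries, and 0.522% and 0.521% at L2C, against 0.992% and 1.04% in control L2C libraries. Many of these genes pass the filter only through L2C, and control libraries chose the set by its rise to L2C. The counts and the ratio to control therefore describe the set and do not test it.

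**Figure D2:**
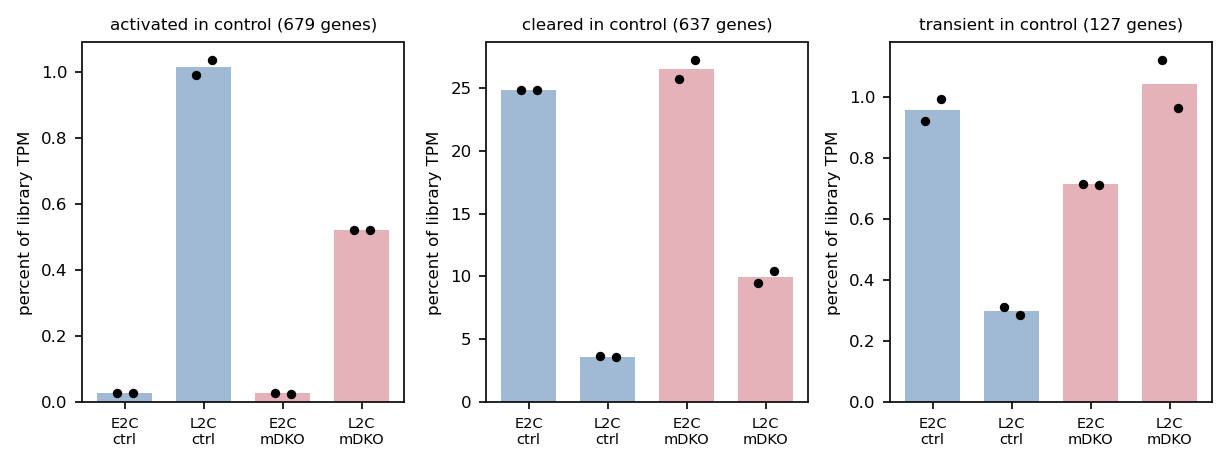
Percent of the library's TPM held by genes that were activated, cleared or transient in control embryos, with bars for means and points for the 2 libraries of each group. The summed share of the activated set rises in both genotypes, and that of the cleared set falls in both and ends higher in mDKO. The summed share of the transient set falls in control and rises in mDKO, although 53 of its genes fell and 26 rose in mDKO.

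The strongest single rises reached high levels from almost nothing. Guca1a, known as a calcium sensor of photoreceptors (chromosome 17, 47394557 to 47413514 on GRCm38.p6), went from 1.38 and 0.327 TPM in mDKO E2C libraries to 359 and 317 at L2C, a log2 rise of 7.57 ± 0.29 (adjusted p = 5.37e-06). Both L2C libraries were far above both E2C libraries, and the rule that named this gene required groups without overlap. In control it went from 9.77 and 8.49 to 420.0 and 425 TPM, and the rise in mDKO, from a lower start, was larger by 2.19 ± 0.34 (adjusted p = 0.0019). The ubiquitin ligase family gene Trim43a rose from 1.65 and 1.77 to 411 and 282 TPM, by 6.98 ± 0.22 (adjusted p = 3.55e-06). The homeobox gene Crxos rose from 10.8 and 9.97 to 1163 and 1042 TPM, by 6.60 ± 0.14 (adjusted p = 2.14e-06), and ended below the 3826 and 3276 TPM of control embryos without overlap. For these last 2 genes the difference between the transitions did not pass, at 0.58 ± 0.39 (adjusted p = 0.311) and -0.14 ± 0.25 (adjusted p = 0.726).

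Prps1, whose enzyme makes the ribose donor for nucleotide synthesis, went from 6.37 and 5.71 to 693 and 591 TPM in mDKO. This rise of 6.51 ± 0.16 (adjusted p = 2.4e-06) exceeded that in control by 1.33 ± 0.22 (adjusted p = 0.00225), from an E2C level that in control was already 29.8 and 34.3 TPM. Fcgr3, which encodes an Fc receptor, rose from 3.32 and 3.05 to 345 and 346 TPM, by 6.37 ± 0.16, with a contrast of 1.14 ± 0.21 (adjusted p = 0.00438). The Mediator subunit gene Med29 rose from 0.944 and 1.71 to 222 and 197 TPM, by 6.52 ± 0.22. Vimp, the gene of a selenoprotein of the endoplasmic reticulum, rose by 6.99 ± 0.25 and Timd2, the gene of a cell surface receptor, by 6.63 ± 0.31. Like Med29, both had a difference from control that did not pass (adjusted p = 0.22 for Med29, 0.677 for Vimp and 0.707 for Timd2).

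A few genes of the activated set did not pass in mDKO. Cox4i2, an alternative subunit of cytochrome c oxidase, stood at 0.860 and 1.64 TPM at E2C and 1.93 and 0.493 at L2C in mDKO, and at 0.806 and 0.387 and 13.2 and 10.6 in control. The mDKO groups overlap, while control embryos rose, and the difference between the transitions was -3.10 ± 0.49 (adjusted p = 0.00197). Tpgs1, a subunit of the tubulin polyglutamylase complex, was at 1.68 and 1.12 and then 1.03 and 1.80 TPM in mDKO, and reached 9.46 and 9.04 TPM in control L2C libraries. Among the 618 members of the set tested in mDKO, 19 did not pass.

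Among known regulators of genome activation, 14 of 30 tested members rose in mDKO, 4 fell and 12 did not pass, and 14 of 31 rose in control. Among all genes 33.3% rose and 21.8% fell in mDKO. The difference between the transitions was lower than 0 for 4 of 31 regulators, near the 12.6% of all genes. Without the first or the second mDKO L2C library, 5 or 6 members rose, and lower contrasts ranged from 1 to 8 over the alternatives, 8 of them with size factors. Gabpa, an ETS-family activator, rose from 1.39 and 1.05 to 105 and 101 TPM, by 5.55 ± 0.20 (adjusted p = 4.97e-06). Dppa4, a chromatin factor, rose from 6.31 and 4.21 to 276 and 255 TPM, by 5.43 ± 0.20 (adjusted p = 5.11e-06), and remained below the control L2C values of 777 and 698. The zinc-finger gene Klf5 went from 0.190 and 0.752 to 35.9 and 33.0 TPM. Nfyb, a subunit of the CCAAT-binding factor NF-Y, rose less than in control, with a contrast of -1.19 ± 0.24 (adjusted p = 0.00683). Its partners Nfya and Nfyc fell by 0.74 ± 0.25 and 0.87 ± 0.15 in mDKO. Nfyc also fell in control, by 0.74 ± 0.18, and the contrast did not pass for either gene (adjusted p = 0.132 for Nfya and 0.741 for Nfyc).

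The early 2-cell genes of the minor wave rose late in mDKO embryos. Of 48 tested members, 40 rose in mDKO, 4 fell and 4 did not pass, with a median log2 change of 3.20 against 0.09 over all genes. In control, 17 of 47 rose, 19 fell and 11 did not pass, with a median of -0.01. The difference between the transitions was higher than 0 for 37 of 48 members and did not pass for 11, and 13 members fell in control while they rose in mDKO. At E2C both mDKO libraries lay below both control libraries for 44 of the 48, and at L2C both lay above for 30. The shares over all genes of the contrast were 30.7% and 35.7%. Over all genes tested, 33.3% rose and 21.8% fell in mDKO, 39.3% and 33.5% did in control, and 13.4% had a higher contrast. The summed list rose from 1217 and 1352 to 10176 and 8781 TPM in mDKO, and stood at 3980 and 5146 TPM at E2C and 4931 and 3935 TPM at L2C in control.

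Zscan4 genes encode zinc-finger proteins of telomere maintenance, and their transcripts mark the 2-cell state. Zscan4f was at 46.0 and 70.1 TPM in mDKO E2C libraries and at 1035 and 787 at L2C. In control it ran the other way, from 521 and 778 to 299.99 and 223 TPM, so that mDKO embryos at L2C stood above control embryos at either stage. The rise in mDKO was 3.97 ± 0.22 (adjusted p = 1.93e-05), the change in control was -1.30 ± 0.21 (adjusted p = 0.00112) and the difference was 5.26 ± 0.35 (adjusted p = 3.74e-05). Zscan4c had the same directions: 17.1 and 36.6 and then 257 and 166 TPM in mDKO, against 191 and 308 and then 64.1 and 42.9 in control. The contrast was 5.18 ± 0.51 for Zscan4c, 4.38 ± 0.37 for Zscan4d, 4.79 ± 0.34 for Zscan4b and 3.72 ± 0.33 for Zscan4a. Zscan4a alone of the 5 did not pass in control, at -0.20 ± 0.19 (adjusted p = 0.366). These genes, like the Usp17l, Tcstv and Gm families below, are near-identical copies, and how reads were shared among copies can move values from one to another.

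The promoters of Zscan4c and Zscan4f are shown because these genes changed in opposite directions in mDKO and control. Sequences are from RefSeq on GRCm38.p6, from 250 bases before to 50 bases after the start, read 5′ to 3′ on the gene's strand. Capitals mark matches on either strand to TATAAA (the TATA box), CCAAT (the NF-Y core), GGGCGG (a GC box), TAATCC (a site of paired-like homeobox factors) and AAGGTCA (an orphan nuclear receptor site). The windows are chr7:11005495-11005794 on the plus strand for Zscan4c and chr7:11397665-11397964 on the plus strand for Zscan4f.
Zscan4c: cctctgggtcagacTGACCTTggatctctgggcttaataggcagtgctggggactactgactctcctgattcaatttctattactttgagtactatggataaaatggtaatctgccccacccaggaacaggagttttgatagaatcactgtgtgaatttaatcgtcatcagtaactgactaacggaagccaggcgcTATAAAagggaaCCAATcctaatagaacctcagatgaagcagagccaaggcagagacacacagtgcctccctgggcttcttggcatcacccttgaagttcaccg
Zscan4f: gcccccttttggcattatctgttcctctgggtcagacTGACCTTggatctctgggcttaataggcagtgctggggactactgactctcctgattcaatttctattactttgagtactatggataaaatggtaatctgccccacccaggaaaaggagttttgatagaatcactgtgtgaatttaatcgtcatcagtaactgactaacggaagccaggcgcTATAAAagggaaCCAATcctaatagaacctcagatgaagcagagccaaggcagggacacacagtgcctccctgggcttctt
Both windows hold AAGGTCA on the reverse strand, then TATAAA and CCAAT, in the same order, at bases 15, 197 and 209 of the Zscan4c window and 38, 220 and 232 of the Zscan4f window. All 4 Zscan4 members with an entry (Zscan4b, Zscan4c, Zscan4d and Zscan4f) hold these 3 motifs and neither of the others, with 1 to 4 CpG dinucleotides each.

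Over the list, 26 of 53 early 2-cell genes had a promoter entry. A gene counted for a motif if any window listed for it held the motif, and CpG were counted in its first window. TATAAA was held by 26.9% of these genes, CCAAT by 65.4%, TAATCC by 30.8%, AAGGTCA by 15.4% and GGGCGG by 11.5%. For the 9378 of 12372 genes tested in mDKO that had an entry, the shares were 9.99%, 44.5%, 7.37%, 4.21% and 63.6%. Over all 27025 gene symbols with an entry they were 15.7%, 41.1%, 8.14%, 5.38% and 38.2%. The median number of CpG dinucleotides was 2 for the early 2-cell genes and 20 for the tested genes. Several of these genes are copies of each other, so their promoters are not independent. Among genes of all kinds, windows held a median of 14 CpG for a higher contrast and 22 for a lower one. A match describes letters and not binding.

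Dux, the homeobox activator of many of these genes, did not follow them. It was at 9.70 and 12.5 TPM in mDKO E2C libraries and fell to 3.71 and 2.05 at L2C, by 1.66 ± 0.30 (adjusted p = 0.00292). In control it fell from 37.6 and 29.6 to 2.92 and 2.76 TPM, so the L2C values of the genotypes overlap while the E2C values do not. The contrast was 1.499 ± 0.37 (adjusted p = 0.0154). BC061212 and Patl2 also fell in mDKO, by 1.22 ± 0.32 and 1.19 ± 0.24, as did the arginase gene Arg2, by 0.70 ± 0.16. Only 2 of the list's 4 falls were called without the second mDKO L2C library.

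Other members repeated the late rise. Gm2016 was at 11.2 and 6.07 TPM at E2C and 572 and 485 at L2C in mDKO, and at 125 and 171 and 251 and 176 in control, a contrast of 5.31 ± 0.38 (adjusted p = 4.64e-05). Gm4027 rose from 72.5 and 72.2 to 1195 and 1115 TPM in mDKO while it fell from 431 and 630.0 to 210.3 and 129 in control. The deubiquitinase gene Usp17la rose by 1.87 ± 0.28 in mDKO and fell by 2.01 ± 0.19 in control, a contrast of 3.88 ± 0.33. Tcstv1 went from 115 and 108 to 296 and 281 TPM in mDKO and from 161 and 194 to 112 and 88.8 in control. Not all members differed: Tdpoz1 rose by 5.70 ± 0.24 in mDKO and 4.94 ± 0.18 in control, with a difference of 0.75 ± 0.29 (adjusted p = 0.0797), and the PRAME-family gene Pramel7 differed by 0.76 ± 0.31 (adjusted p = 0.0943).

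A broader set chosen in control libraries alone gave a mixed picture. It held 127 genes that were below 1 TPM at the MII oocyte stage, at 10 TPM or more at E2C, and fell by L2C in control. In mDKO, 26 of the 126 tested rose, 53 fell and 47 did not pass, with a median of -0.47 against -1.52 in control, which the choice of the set makes low. Their summed level was 7166 and 7110 TPM at E2C in mDKO and 11225 and 9648 at L2C, while in control it went from 9209 and 9942 to 3108 and 2853. Among the members that fell in mDKO, Ccdc105 went from 9.30 and 6.27 to 0.539 and 0.911 TPM. The inflammasome gene Nlrc4 went from 19.133 and 18.3 to 4.41 and 6.28.

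**Figure D3:**
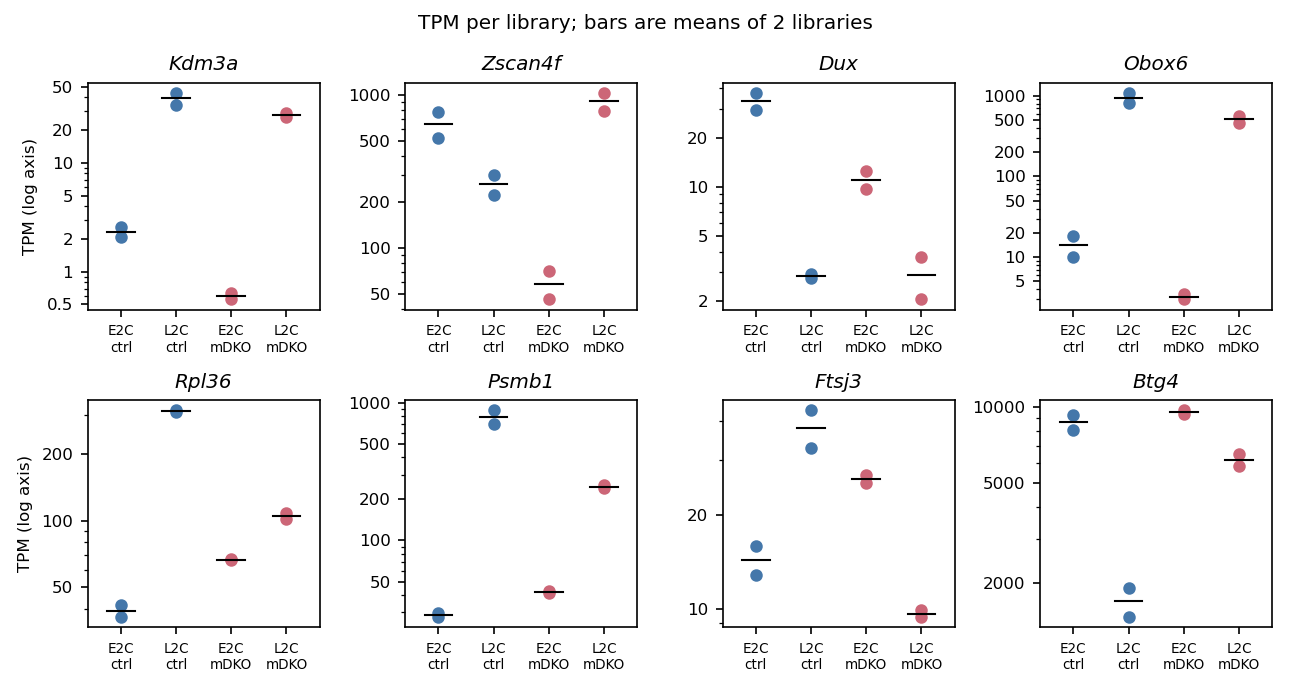
TPM on log axes in each of the 8 libraries for 8 genes, with bars at group means and control in blue and mDKO in red. Zscan4f falls in control and rises in mDKO, Ftsj3 does the reverse, Kdm3a and Obox6 rise in both, and Btg4 falls less in mDKO than in control.

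The Obox homeobox genes split into members that rose and members that fell. Of 8 tested members, 3 rose, 4 fell and 1 did not pass in mDKO. In control 3 rose and 5 fell, and the contrast was higher than 0 for 6. Over all genes tested, 33.3% rose and 21.8% fell in mDKO, 39.3% and 33.5% did in control, and 13.4% had a higher contrast. Obox6 rose from 3.45 and 2.99 to 566 and 459 TPM in mDKO, by 6.92 ± 0.17 (adjusted p = 2.71e-06), and its difference from control did not pass, at 0.90 ± 0.35 (adjusted p = 0.0866). Obox3 rose from 9.87 and 10.7 to 781 and 688 TPM, by 6.02 ± 0.14. In control it went from 25.3 and 39.3 to 1080.1 and 707 TPM, so the L2C values overlap, and the larger step in mDKO, from a lower start, gave a contrast of 1.28 ± 0.33 (adjusted p = 0.0192). Obox8 rose by 6.05 ± 0.27 to 215 and 172 TPM, below the 809.5 and 641 TPM of control at L2C, and its contrast was -1.03 ± 0.34 (adjusted p = 0.05), which did not pass. Obox1 fell less in mDKO than in control. It went from 8889.9 and 9422 to 2111 and 2310.4 TPM in mDKO and from 7335 and 8167 to 449 and 381 in control. Its contrast was 2.17 ± 0.15 (adjusted p = 3.89e-05). Obox7, Obox4 and Obox2 had contrasts of 2.02 ± 0.17, 2.27 ± 0.23 and 0.73 ± 0.14, all past the threshold.

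The promoter of Obox3 is shown as that of a gene that rose and whose L2C values overlapped those of control. It lies at chr7:15639728-15640027 on the minus strand of GRCm38.p6, capitals as above.
Obox3: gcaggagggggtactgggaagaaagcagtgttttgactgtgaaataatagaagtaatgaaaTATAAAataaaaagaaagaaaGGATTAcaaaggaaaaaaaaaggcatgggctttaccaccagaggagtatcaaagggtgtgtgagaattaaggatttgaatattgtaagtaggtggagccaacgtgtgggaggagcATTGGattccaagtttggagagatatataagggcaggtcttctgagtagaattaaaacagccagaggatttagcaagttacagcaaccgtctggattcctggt
It holds TATAAA on its own strand and both TAATCC and CCAAT on the reverse strand. Among 1099 genes with an entry that rose by at least 2 in mDKO, 11.3% held TAATCC, against 7.37% of those tested.

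Ribosomal protein genes rose in both genotypes, by less in mDKO. All 82 were tested: 75 rose in mDKO, 1 fell and 6 did not pass, with a median of 2.23, and 80 rose in control, with a median of 3.22. The contrast was lower than 0 for 60 and higher for 1. Together they held 1.27% and 1.18% of the TPM in mDKO E2C libraries and 4.07% and 3.88% at L2C, against 1.36% and 1.35% and then 8.14% and 7.97% in control. At L2C both mDKO libraries lay below both control libraries for 79 of the 82, against 35.9% of all genes of the contrast. Over all genes tested, 33.3% rose in mDKO and 39.3% in control, and 12.6% had a lower contrast. These genes have many processed pseudogenes, so how reads were shared among copies can affect their levels.

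The size of the difference from control varied among these genes. Rpl41 (a protein of the large subunit) rose from 99.4 and 97.5 to 5780.5 and 4791 TPM in mDKO, by 5.73 ± 0.12 (adjusted p = 2.14e-06). Control embryos rose from 232 and 235 to 12982 and 12398 TPM, and the difference was -0.03 ± 0.15 (adjusted p = 0.899). Rpl36, also of the large subunit, rose from 66.8 and 66.5 to 109 and 102 TPM in mDKO, by 0.65 ± 0.13 (adjusted p = 0.00547). In control it rose from 41.5 and 36.7 to 316 and 311 TPM, and the contrast was -2.33 ± 0.18 (adjusted p = 6.75e-05). Its mDKO libraries lay above control at E2C and below it at L2C, without overlap. Rps15a was the member that fell, by 0.82 ± 0.21 (adjusted p = 0.0139), a call lost without the first mDKO L2C library. Rps27l, a paralogue known as a p53 target, was the one with a higher contrast, 0.50 ± 0.11 (adjusted p = 0.00911), a call lost with size factors, with no filter and with no mean-dependent trend.

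Ribosome biogenesis factors, which process ribosomal RNA in the nucleolus, rose less often in mDKO than in control. Of 56 tested members, 29 rose, 11 fell and 16 did not pass in mDKO, where in control 50 rose and 2 fell. Medians were 0.79 and 2.22. The contrast was lower than 0 for 41 of 56, and 6 members rose in control while they fell in mDKO. At E2C both mDKO libraries lay above both control libraries for 30 of the 56, and at L2C below them for 55. The shares over all genes of the contrast were 23.3% and 35.9%. Over all genes tested, 33.3% rose and 21.8% fell in mDKO, and 12.6% had a lower contrast. Some members still rose strongly: Nop16 from 0.189 and 0.897 to 155 and 129 TPM and Wdr74 from 1.32 and 1.91 to 47.3 and 36.3, with contrasts that did not pass (-0.07 ± 0.47 and -0.33 ± 0.28). The RNA polymerase I and III subunit gene Polr1c rose by 3.69 ± 0.19, and the box C/D methyltransferase gene Fbl by 2.09 ± 0.23, less than in control by 1.07 ± 0.34.

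Ftsj3, an RNA methyltransferase gene of ribosome assembly (chromosome 11, 106249138 to 106256084), reversed its direction. It fell from 26.9 and 25.3 to 9.88 and 9.42 TPM in mDKO, by 1.35 ± 0.19 (adjusted p = 0.000979), while it rose from 15.9 and 12.8 to 32.8 and 43.3 in control, by 1.34 ± 0.20 (adjusted p = 0.000751). The groups do not overlap at either stage: mDKO was the higher at E2C and the lower at L2C. The nucleolin gene Ncl fell from 105 and 89.6 to 52.9 and 48.3 TPM in mDKO and rose from 64.1 and 55.6 to 103 and 98.5 in control, a contrast of -1.68 ± 0.21 (adjusted p = 0.000602). The helicase gene Ddx18, the GTPase gene Gnl2 and the exosome subunit gene Exosc7 also reversed, with contrasts of -1.93 ± 0.21, -2.43 ± 0.38 and -2.18 ± 0.22. The promoter of Ftsj3 lies at chr11:106256035-106256334 on the minus strand and is shown for comparison with those of Zscan4.
Ftsj3: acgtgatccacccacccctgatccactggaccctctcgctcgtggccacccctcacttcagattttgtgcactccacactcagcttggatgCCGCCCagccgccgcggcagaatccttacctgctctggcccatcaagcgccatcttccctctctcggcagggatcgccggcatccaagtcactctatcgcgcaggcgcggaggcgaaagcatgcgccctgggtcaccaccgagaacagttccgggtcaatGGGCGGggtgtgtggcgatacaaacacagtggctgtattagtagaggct
It holds GGGCGG at base 92 on the reverse strand and at base 252, and none of the other motifs. Its 21 CpG dinucleotides are close to the median of 20 over the tested genes. Among genes with a promoter entry, GGGCGG was held by 65.0% of those with a lower contrast, near the 63.6% of all tested genes. It was held by 52.9% of those with a higher contrast.

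**Figure D4:**
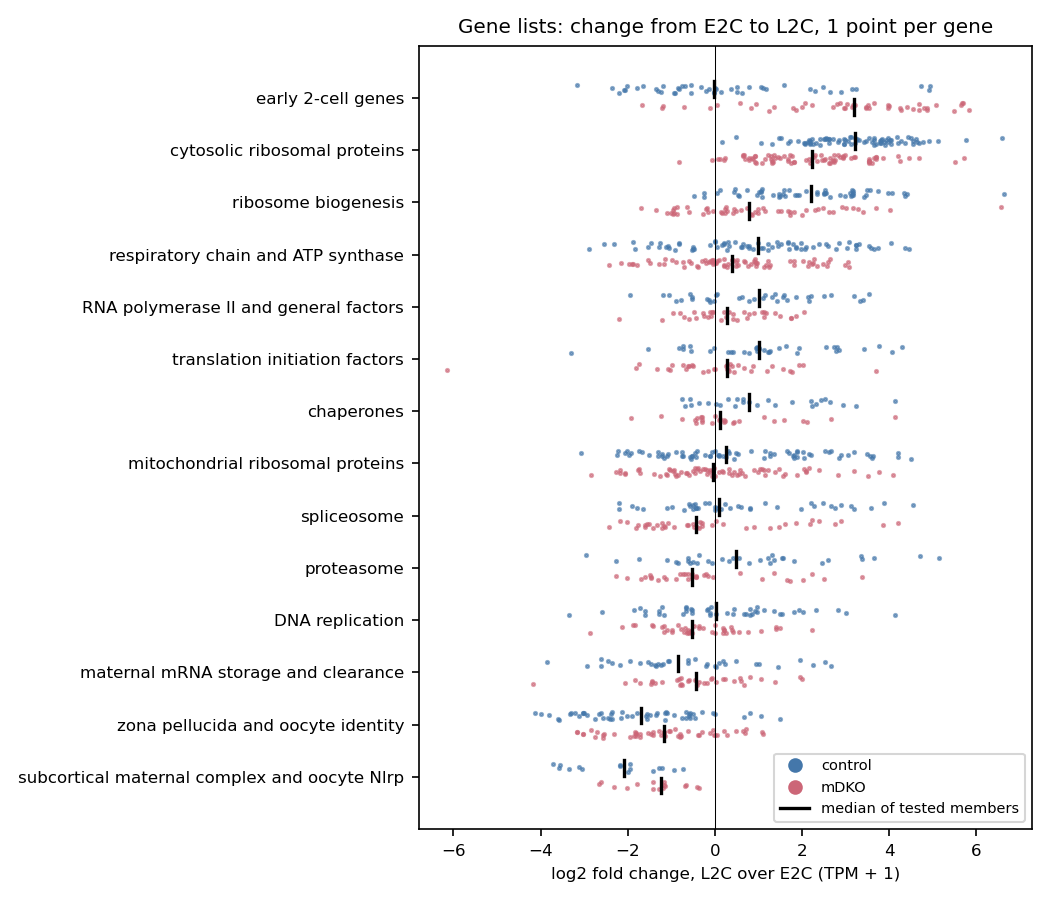
Change from E2C to L2C in log2 fold change of TPM + 1 for members of 14 gene lists, 1 point per gene, control in blue and mDKO in red, with black bars at the medians of tested members. The medians of early 2-cell genes, oocyte genes and maternal RNA storage genes are higher in mDKO, and those of the other lists drawn from ribosomal proteins to DNA replication are lower.

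Proteasome genes, which encode the machine that degrades proteins, fell more often than they rose in mDKO. Of the 34 proteasome genes, 9 rose, 20 fell and 5 did not pass in mDKO, where 17 rose and 12 fell in control, with medians of -0.52 and 0.49. The contrast was lower than 0 for 23 and higher for 2. Over all genes tested, 33.3% rose and 21.8% fell in mDKO, 39.3% and 33.5% did in control, and 12.6% had a lower contrast. Psmb1, a core subunit, rose from 41.7 and 42.9 to 250.00 and 238 TPM in mDKO and from 27.7 and 29.6 to 878 and 694 in control, a contrast of -2.22 ± 0.20 (adjusted p = 0.000133). Psma6 fell from 186 and 192 to 119.5 and 127 TPM in mDKO and rose from 207 and 199.6 to 539 and 483 in control. It was 1 of 4 members called in opposite directions. Psmc5, a regulatory ATPase gene, fell in mDKO from 232 and 208 to 49.1 and 58.4 TPM, with a contrast of -1.60 ± 0.19, and Psmd10, the gene of an assembly chaperone, fell less than in control, with 1.49 ± 0.20.

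Translation and transcription factors gave intermediate counts. List counts from here on stand beside 33.3% of all genes rising and 21.8% falling in mDKO, and 39.3% and 33.5% in control. Contrasts were higher for 13.4% of all genes and lower for 12.6%. Of 37 translation initiation factor genes, 14 rose and 11 fell in mDKO against 26 and 6 in control, and 18 had a lower contrast and 1 a higher one. Eif3c, of the eIF3 complex, rose from 12.4 and 9.19 to 46.7 and 45.7 TPM in mDKO and from 6.23 and 6.69 to 104 and 147 in control. Eif3m lay between 27.4 and 35.1 TPM in the 4 mDKO libraries, while control rose from 21.5 and 19.8 to 147 and 139, a contrast of -2.87 ± 0.22 (adjusted p = 7.06e-05). Eif3e fell from 131 and 148 to 53.9 and 55.8 TPM in mDKO and rose in control, with -2.12 ± 0.25.

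Of 36 genes of RNA polymerase II and its general factors, 16 rose and 8 fell in mDKO and 22 rose and 8 fell in control, with 16 contrasts lower and 4 higher. Without the first mDKO L2C library, 10 rose and 3 fell, and 5 fell without the second. The shared polymerase subunit gene Polr2h rose from 44.8 and 41.0 to 118 and 127 TPM in mDKO and to 841 and 685 in control, a contrast of -2.04 ± 0.21. Gtf2h2, of TFIIH, fell in mDKO by 1.22 ± 0.19 and rose in control by 0.62 ± 0.17. Gtf2a2, of TFIIA, was at 1087 and 1164 TPM at L2C in mDKO where control fell to 387 and 378.

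Of 42 spliceosome genes, 13 rose and 22 fell in mDKO and 18 rose and 13 fell in control, with 19 contrasts lower and 2 higher. Snrpa, of the U1 particle, rose from 20.1 and 21.5 to 56.4 and 46.2 TPM in mDKO and from 16.9 and 18.4 to 178 and 159.5 in control. Snrpc, also of U1, rose more in mDKO than in control, by 1.08 ± 0.25 (adjusted p = 0.0119), from 28.8 and 20.0 to 483 and 441 TPM. Prpf6, of the tri-snRNP, fell in mDKO by 2.44 ± 0.16, and Snrpd3, of the Sm core, fell by 2.17 ± 0.15 in mDKO and 2.21 ± 0.12 in control.

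Mitochondrial genes split as well. Of 75 nuclear genes of the respiratory chain and ATP synthase, 37 rose, 17 fell and 21 did not pass in mDKO and 45 rose and 18 fell in control, with 28 contrasts lower and 3 higher. Ndufb10, of complex I, rose from 16.5 and 13.6 to 146 and 108 TPM in mDKO and differed from control by -0.25 ± 0.26 (adjusted p = 0.521). Of 74 mitochondrial ribosomal protein genes, 27 rose and 27 fell in mDKO, and of 75 in control 35 rose and 27 fell, with 22 contrasts lower and 8 higher. Mrps28 had the contrast -2.45 ± 0.21, and Mrpl41 rose to 87.2 and 74.7 TPM in mDKO, a change that differed from control by 0.46 ± 0.26 (adjusted p = 0.221).

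Most genes that were cleared by L2C in control also fell in mDKO embryos, to higher final levels. A set of 637 genes chosen in control alone had a mean of 10 TPM or more at E2C and fell by at least 2 on the log2 scale by L2C. In mDKO, 584 of the 636 tested fell, 46 did not pass and 6 rose, with a median of -1.41 against -2.46 in control, where the choice of the set makes the fall large. The set is not maternal RNA alone: 450 members had a control mean of 10 TPM or more in MII oocytes, 147 had 1 to 10 TPM, and 40 were below 1 TPM, among them Zscan4c, Zscan4b and Usp17la. In this split, made after the values were seen, 434 of the 450 fell in mDKO with a median of -1.47, against -2.49 in control. All 6 members that rose in mDKO were among the 40. The 637 genes summed to 257055 and 272347 TPM in mDKO E2C libraries and to 94610 and 104080 at L2C, and in control to 248191 and 248284 and then 36843 and 35787. At L2C the level of these genes in mDKO was at the median 223% of that in control. Low control L2C values chose the set, which can raise this ratio, so it describes the set and does not test it. In a pool of embryos, fewer cells with a transcript and less of it per cell cannot be told apart. Embryo-by-embryo values were not analysed here.

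Most oocyte genes fell in both genotypes. Of 53 zona pellucida and oocyte identity genes, 37 fell, 7 rose and 9 did not pass in mDKO, and 46 of 54 fell and 4 rose in control. The contrast was higher than 0 for 28 and lower for 1, and higher for 17 with size factors and for 18 with no mean-dependent trend. Bcl2l10, an anti-apoptotic gene of the egg, fell from 10250.1 and 9768 to 2587 and 3111 TPM in mDKO and from 8921 and 8875 to 633 and 632 in control, a contrast of 1.99 ± 0.14 (adjusted p = 3.89e-05). The oocyte transcript E330034G19Rik fell from 9385 and 9361 to 4921 and 5507 TPM in mDKO, against 1324 and 1095 at L2C in control. The oocyte growth factor gene Bmp15 had a contrast of 1.198 ± 0.19. Zp3, of the zona pellucida, was the 1 member with a lower contrast: it did not pass in mDKO, at -0.28 ± 0.15 (adjusted p = 0.149), and rose in control from 37.1 and 33.6 to 103 and 101 TPM. Omt2a and Omt2b, close copies of each other, rose in both genotypes, and Omt2b reached 67732 and 62273 TPM at L2C in mDKO and 54069 and 51593 in control.

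The subcortical maternal complex is a protein assembly of the egg cortex needed for the first cleavages. Of its 16 tested genes and oocyte Nlrp relatives, 14 fell and 2 did not pass in mDKO, and 15 fell in control. The contrast was higher than 0 for 8. Nlrp4f fell from 873 and 884 to 381 and 405 TPM in mDKO and from 852 and 876 to 107 and 102 in control, a contrast of 1.88 ± 0.14 (adjusted p = 5.85e-05). Ooep, a core member, fell from 1635 and 1582 to 244 and 286 TPM in mDKO, by 2.60 ± 0.12, and in control to 102 and 116.

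Genes for the storage and clearance of maternal RNA fell more often than they rose. Among all genes 21.8% fell and 33.3% rose in mDKO, and 13.4% had a higher contrast and 12.6% a lower one. Of 36 list members tested, 18 fell and 6 rose in mDKO and 21 fell and 8 rose in control. Their contrasts were higher for 6 and lower for 1. Without the first mDKO L2C library 11 fell and 2 rose, without the second 3 rose, and 10 contrasts were higher without the first mDKO E2C library. Btg4, the adaptor that brings the CCR4-NOT deadenylase to maternal RNA, was at 9376 and 9694 TPM at E2C and 5841 and 6529 at L2C in mDKO, against 8119.7 and 9296 and 1920.1 and 1468 in control, a contrast of 1.74 ± 0.18 (adjusted p = 0.000276). The oocyte cap-binding gene Eif4e1b fell by 1.21 ± 0.14 in mDKO and 2.61 ± 0.17 in control. Zar1, which stores RNA in the oocyte, fell from 403 and 287 to 92.7 and 98.3 TPM, with a difference from control that did not pass, at 0.64 ± 0.28 (adjusted p = 0.124). The deadenylase gene Cnot8 rose in mDKO by 0.82 ± 0.18, less than in control by 1.14 ± 0.23.

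Of the genes with the largest falls in mDKO, some had no detected difference from control and others did. Not all of this RNA was abundant in the egg: Ssb had a mean of 34.6 TPM in control MII oocytes and 751 at E2C. Pabpn1l, a poly(A)-binding gene of oocytes that takes part in maternal RNA decay, fell from 97.3 and 118 to 4.94 and 5.02 TPM, by 4.18 ± 0.19 (adjusted p = 8.71e-06), with L2C values that overlapped the 6.04 and 3.93 TPM of control. Rgs2, a regulator of G-protein signalling, fell from 1429 and 1404 to 99.4 and 93.8 TPM in mDKO, by 3.86 ± 0.11, and by 4.07 ± 0.12 in control. The F-box gene Fbxw28 fell by 3.15 ± 0.15, and its difference of 0.05 ± 0.21 (adjusted p = 0.884) did not pass. Ssb, which encodes the La RNA-binding protein, fell further in mDKO, from 1994 and 1623 to 211 and 225 TPM, against 786 and 717 to 245 and 196 in control, a contrast of -1.27 ± 0.20 (adjusted p = 0.00189). Oog4, an oogenesin, fell by 3.16 ± 0.23, less than in control by 0.96 ± 0.28, and Oma1, a mitochondrial protease gene, fell by 3.13 ± 0.22, more than in control by 1.12 ± 0.35.

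DNA replication genes fell more often than they rose. Of 45 tested, 6 rose, 21 fell and 18 did not pass in mDKO, and 19 rose and 17 fell in control, with 14 contrasts lower and 1 higher. Without the first mDKO L2C library 13 fell. Mcm10, a factor that starts replication, fell from 31.7 and 26.7 to 6.18 and 8.46 TPM in mDKO, and its control values of 18.6 and 13.6 and 14.5 and 18.3 overlap. The primase gene Prim2 had a contrast of -2.64 ± 0.31 (adjusted p = 0.000508). Gins1, of the replicative helicase, fell in mDKO by 1.17 ± 0.26 and rose in control by 0.81 ± 0.22.

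Cell cycle genes gave mixed counts, 13 rising and 14 falling of 37 in mDKO against 17 and 12 of 36 in control. The 13 rises stand beside 33.3% of all genes, and the 14 falls beside 21.8%. Cyclin E1 (Ccne1) rose from 3.65 and 3.01 to 138 and 154 TPM in mDKO, by 5.09 ± 0.18, and ended below the 249 and 285 TPM of control. The spindle checkpoint kinase gene Ttk fell to 114 and 116 TPM at L2C in mDKO, where control fell to 43.6 and 47.9, a contrast of 1.72 ± 0.21 (adjusted p = 0.000639). Cdc25a, a phosphatase gene, fell from 28.6 and 20.4 to 5.53 and 5.47 TPM in mDKO and did not pass in control.

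Chaperone genes, which aid protein folding, rose for 9 of 27 and fell for 6 in mDKO, and rose for 18 and fell for 4 in control, with 14 contrasts lower and 1 higher. Hspa5, of the endoplasmic reticulum, was at 78.4 and 73.7 TPM at E2C and 108 and 94.8 at L2C in mDKO, and at 40.1 and 34.3 and 214 and 267 in control. The smaller step, a contrast of -2.25 ± 0.22 (adjusted p = 0.000219), went with a higher start and a lower end. Hsp90ab1, a cytosolic chaperone, fell from 334 and 287 to 127 and 136 TPM in mDKO and rose in control to 257 and 366. Without the first mDKO L2C library, and also without the second, 5 chaperone genes rose and 3 fell.

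Pluripotency and early lineage factors rose more often than they fell. Of 24 tested, 14 rose, 2 fell and 8 did not pass in mDKO, and 16 of 25 rose in control, with 5 contrasts lower and 1 higher. With a minimum of 5 TPM 8 rose, and 6 did without the first mDKO L2C library or without the second. Zfp42 rose from 2.48 and 1.79 to 25.3 and 29.3 TPM in mDKO, by 3.18 ± 0.24, and Sox2 from 0.781 and 0.103 to 4.84 and 7.37, by 2.32 ± 0.32. The nuclear receptor gene Esrrb did not pass in mDKO, at -0.39 ± 0.28 (adjusted p = 0.269), and rose in control from 2.39 and 2.09 to 7.29 and 8.23 TPM. Prdm14, a regulator of germ cells and pluripotency, did not reach the filter in mDKO, at 0.491 and 0.242 and 1.56 and 0.936 TPM, and was at 12.4 and 10.8 TPM in control L2C libraries. Pou5f1 fell in control and did not pass in mDKO, a contrast of 1.17 ± 0.34 (adjusted p = 0.0309).

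Among the targeted genes, Kdm3a itself rose. It went from 0.642 and 0.557 TPM at E2C to 28.4 and 26.3 at L2C in mDKO, by 4.15 ± 0.23 (adjusted p = 1.96e-05), and the difference from control was 0.57 ± 0.30 (adjusted p = 0.196). Kdm3b did not pass the filter in mDKO, at 0.129 and 0.289 and 0.651 and 1.79 TPM, and rose in control by 1.37 ± 0.26 (adjusted p = 0.00245). The paralogue Jmjd1c did not pass, at 0.52 ± 0.26 (adjusted p = 0.131). Which allele the Kdm3a RNA came from was not analysed here. Kdm4c, of another H3K9 demethylase family, rose from 0.248 and 0.404 to 9.63 and 10.2 TPM in mDKO, and Kdm1a, which acts on lysine 4 and lysine 9, fell from 79.0 and 63.1 to 20.7 and 19.3.

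Of the 19 genes that write or read H3K9 methylation, 6 rose, 7 fell and 6 did not pass in mDKO. These counts stand beside 33.3% of all genes rising and 21.8% falling, and in control 11 of the 19 rose and 6 fell. The contrast was lower than 0 for 7 and higher for 1, and lower for 4 without the second control E2C library or the first mDKO L2C library. The higher one was that of Uhrf1, at 1.09 ± 0.34 (adjusted p = 0.0422). It did not pass under the replicate block, with no filter, with no mean-dependent trend, or without the first or second control E2C library, the second mDKO E2C library, the first control L2C library or either mDKO L2C library. The methyltransferase gene Setdb1 fell from 71.8 and 51.3 to 16.4 and 17.3 TPM in mDKO, by 1.79 ± 0.21, and the chromodomain gene Mphosph8 by 2.25 ± 0.18, more than in control by 1.13 ± 0.26. Cbx3, which encodes an HP1 protein that binds methylated H3K9, rose from 12.1 and 14.0 to 84.6 and 80.7 TPM. Trim28, the corepressor that brings SETDB1 to its targets, stood at 33.5 and 16.9 TPM at E2C and 23.3 and 21.4 at L2C in mDKO. Control rose from 5.76 and 4.87 to 54.6 and 59.0 TPM, with no overlap between the stages, and the contrast was -3.29 ± 0.39 (adjusted p = 0.00049).

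Opposite calls were few. Of the 11778 genes tested in both transitions, 87 fell in control and rose in mDKO, and 85 rose in control and fell in mDKO. Some of the 87 have identical values, such as Gm21304, Gm21293, Gm8764 and Gm6763, and are not separate measurements. All genes called in opposite directions also passed the test of the difference. That test uses the same libraries, so this adds no separate support. Beyond those described, Dnttip2, a nucleolar factor gene, fell from 82.0 and 101 to 25.7 and 26.6 TPM in mDKO and rose from 36.6 and 29.1 to 112 and 105 in control, a contrast of -3.47 ± 0.23 (adjusted p = 3.74e-05). A further 1119 genes rose in control and did not pass in mDKO, and 1790 fell in control and did not pass in mDKO. A gene that misses the threshold in mDKO is not shown to stay level: of these, 448 and 603 passed the test of the difference.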

How the data were processed

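PolyA RNA of pooled embryos was sequenced by the authors, who deposited TPM values per gene and library. Tools listed in the submitters' processing notes, without roles, are RSEM 1.3.1, STAR 2.7.10b, SAMtools 1.9 and Bowtie2 2.3.4.1, and the build is mm10. TPM corrects for length and has the same total in every library, so depth is unknown and no counting interval can be given.

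Here log2(TPM + 1) was tested with limma 3.58.1 (R 4.3.3), with a mean-dependent prior variance and Benjamini-Hochberg adjustment over all genes tested, at an adjusted p of 0.05. Errors are standard errors of the log2 change, with 2 libraries a group. The mDKO and control transitions were fitted apart, and the contrast over 8 libraries. A gene needed 1 TPM in 2 libraries of its fit. The labels do not say that replicates came from separate matings, so p-values may measure technical spread. The analysis was tested on simulated data.

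Members and lists were chosen with earlier results of these data known. Genes named were the 10 largest called changes and contrasts in each direction with a mean of 5 TPM and no clone-type name. For these changes, though not for the contrasts, the E2C and L2C libraries also had to be without overlap. Added to these were the 3 largest called changes and the 2 largest called contrasts per list and direction. So were 4 genes at each end of the control-defined sets, and the targeted genes. Bmp15, Pou5f1, Arg2, Tcstv1, Fbl, Ncl, Ddx18, Gnl2, Exosc7, Eif3e, Gins1, Serpine2, Lyz2, Tyrobp and Eif3j2 were singled out after their values were seen. Of 24412 symbols, 24302 matched RefSeq (GRCm38.p6). Alternatives were pseudocount, filter, trend, scaling, joint fits, a replicate block and leaving out each library. Tables of injected embryos were not used here. Some genes that the rule names are not reported here.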

Additional observations from a re-analysis of the deposited data

Results flagged for a closer look

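The difference between the transitions passed the test for 1795 genes in the higher and 1694 in the lower direction, and these and the genes below were singled out because the change from E2C to L2C differed between mDKO and control. Zscan4f (5.26), Zscan4c (5.18), Zscan4b (4.79), Zscan4d (4.38), Usp17la (3.88) and Zscan4a (3.72) had the higher contrasts described above, in log2(TPM + 1).

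Samt2, a gene of a spermatid protein family, had a contrast of 4.12. It rose from 1.34 and 2.57 to 37.1 and 38.1 TPM in mDKO and lay between 3.88 and 6.58 TPM in control. The odorant receptor gene Olfr376 had 3.67, with a rise from 0.753 and 1.15 to 64.9 and 56.4 TPM in mDKO against 3.24 and 6.75 and then 15.027 and 11.8 in control. The contrast of Xlr3c, one of several close copies, was 3.68, and its mDKO E2C libraries differed at 0 and 4.25 TPM. Apoo-ps, a pseudogene, had 4.58. It was listed at 0 in all control and mDKO E2C libraries here and at 14.1 and 37.0 TPM in mDKO L2C libraries.

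On the other side stood Sumo2 (-4.13), which encodes a SUMO modifier and has close copies. It rose from 228 and 216 to 485 and 555 TPM in mDKO and from 47.7 and 39.6 to 1835 and 1797 in control, so that mDKO was higher at E2C and lower at L2C without overlap. The ribosome assembly gene Cebpz (-3.32) fell from 28.5 and 21.1 to 14.0 and 14.3 TPM in mDKO and rose from 7.09 and 6.40 to 46.8 and 43.0 in control. Wrb (-3.35), of tail-anchored protein insertion, lay between 1.93 and 2.63 TPM in mDKO and rose to 19.4 and 15.1 in control. Dnttip2 (-3.47) and Trim28 (-3.29) are described above.

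Cldn34d (-3.31), a claudin, fell from 13.0 and 12.5 to 0.986 and 2.67 TPM in mDKO, and the defensin gene Defb42 (-3.73) reached 2.40 and 4.29 TPM at L2C against 69.0 and 65.5 in control. The glycoprotein hormone gene Gpha2 (-3.42) reached 0.317 and 1.94 TPM against 17.3 and 23.2. Plac9a (-5.76), with a close copy, was listed at 0 in all 4 mDKO libraries and was at 76.4 and 45.0 TPM in control L2C libraries. Eif3j1 (-9.59), an initiation factor gene with a close copy, Eif3j2, had 0.00455 and 34.7 TPM in the 2 control E2C libraries, which differ widely, and fell from 73.5 and 78.4 to 0.149 and 0.0120 TPM in mDKO. Over the same step Eif3j2 went from 64.2 and 29.1 to 254 and 218 TPM in mDKO. How reads were divided between these copies was not tested.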

How the results depend on the processing

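Limits: each group had 2 libraries, so a single gene's exact permutation test cannot go below p = 0.333, and calls rest on a spread pooled across genes. TPM keeps no depth, so counting error is unknown. Stage, library preparation and sequencing cannot be told apart.

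With a minimum of 5 TPM 293 genes of the activated set rose in mDKO, and 954 of 1347 with a pseudocount of 0.1, which enlarges the set. Leaving out 1 library gave 74 to 597 for that set, 1943 to 4208 genes higher and 1612 to 2835 lower in mDKO, and 1136 to 1613 higher and 1046 to 1728 lower contrasts. Without an L2C library fewer genes can pass the filter on 2 libraries. In control, and in the cleared and transient sets, counts stayed within 1.5 times under all alternatives run. Over the libraries left out Cox4i2 ranged from -0.33 to 0.41, and its direction turned without the second mDKO L2C library. The direction also turned for Tpgs1, 0.00 in the main analysis: -0.0047 with a pseudocount of 0.1, -0.072 with size factors, and from -0.23 to 0.23 over the libraries left out, with -0.17 without the second mDKO E2C library. None of the other named genes changed direction in mDKO or in the contrast.

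The replicate numbers are shared across groups, but same-numbered libraries did not deviate together, with correlations of -0.02 in mDKO and -0.08 in control across genes. With a replicate block 4042 genes rose and 2574 fell in mDKO, and contrasts were higher for 1630 and lower for 1540. The block left 182 of the named genes' calls in mDKO and 95 of those in the contrast on the same side of the threshold, with 2 and 3 lost. With size factors 3865 genes rose and 3206 fell in mDKO. Higher contrasts of oocyte genes numbered 28, and 18 with no mean-dependent trend. The cause of these differences was not tested.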

Other observations

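Of the DNA methylation genes, 14 were tested in mDKO, of which 3 rose and 5 fell, and of 15 in control 2 rose and 5 fell. Zfp57, which protects imprints, fell from 1128 and 1263 to 159.7 and 188 TPM in mDKO and from 988 and 836 to 113 and 122 in control, with no overlap between stages. Dnmt1, the maintenance methyltransferase gene, fell by 2.31 ± 0.17 in mDKO, and Dnmt3l, a cofactor of new methylation, rose from 52.3 and 47.1 to 102 and 104 TPM. The contrast passed for 2 of 15 members, both higher, beside 26.0% of all genes in either direction and 13.4% higher. Both calls were lost under the replicate block, with no filter, with no mean-dependent trend, or without the first or second control E2C library, the second mDKO E2C library, the first control L2C library or either mDKO L2C library.

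Of 22 glycolysis and pyruvate genes, 9 rose and 2 fell in mDKO and 10 rose and 5 fell in control. Of the lactate dehydrogenase subunit genes, Ldhb fell from 6364 and 7129 to 1704 and 1744 TPM, and Ldha rose from 2.06 and 1.77 to 22.0 and 30.5. Ldha rose more in mDKO than in control, by 1.99 ± 0.44 (adjusted p = 0.00947), and Ldhb fell less, by 1.29 ± 0.17 (adjusted p = 0.000901). The pyruvate carrier gene Mpc2 rose from 43.2 and 49.9 to 608 and 528 TPM in mDKO and to 766 and 751 in control.

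The counts that follow stand beside 33.3% of all genes rising and 21.8% falling in mDKO, and several drop without the first or without the second mDKO L2C library. Of 27 germline genes, 11 rose and 7 fell in mDKO, and of 28 in control 14 rose and 9 fell. In mDKO 6 rose without the first of these libraries, and 7 without the second or with a minimum of 5 TPM. Hormad1, a meiotic chromosome axis gene, rose from 3.32 and 2.99 to 81.7 and 77.7 TPM in mDKO, and Dazl, an RNA-binding gene of germ cells, fell from 477 and 561 to 119 and 144. Of 14 p53 target genes, 5 rose and 1 fell in mDKO, and 3 rose when either library was left out. The cell cycle inhibitor gene Cdkn1a rose from 2.27 and 2.42 to 34.8 and 28.2 TPM, and its difference from control did not pass, at 0.18 ± 0.29 (adjusted p = 0.694). Of 17 imprinted genes, 9 rose and 1 fell in mDKO, and 2 rose when either was left out. The single fall was lost under the replicate block, with no filter, with no mean-dependent trend, or without the first mDKO E2C library or either mDKO L2C library. The placental gene Phlda2 rose from 14.9 and 14.5 to 107 and 103 TPM in mDKO and ended below the 351 and 425 TPM of control. Of 17 SUMO pathway genes, 6 rose and 5 fell in mDKO, and 2 rose without the first library and 3 without the second. Of 8 further H3K9 demethylase genes, 2 rose and 3 fell in mDKO, and neither rise was called when either library was left out.

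Across the 11886 of 12372 genes with a GENCODE transcript, the change in mDKO and the length of the longest one had a Spearman correlation of -0.147, and in control -0.06. This is across genes of the same libraries and is a description only. Genes that rose in mDKO had a median length of 2476 bases, those that fell 3015 and those not called 3443.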
